A study of Homo sapiens with 6 samples.

Results

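Under E6R, cells with the highest share of RNA from DNA replication genes were compared with the cells that had the lowest share, within each of the E6R libraries. They belong to SK-N-BE(2)-C, a human neuroblastoma cell line, and were profiled with Seq-Well S3, a single-cell RNA-seq method that pairs cells with barcoded capture beads in small wells. The series holds 6 libraries of this line, 2 for each of 3 treatments: the solvent DMSO as control, TSA, a name commonly used for trichostatin A, which blocks histone deacetylase (HDAC) enzymes, and E6R. The title of the series names inhibition of the HDAC complex by non-enzymatic means. What E6R is chemically, and at which dose and for how long cells were treated, is not known from these sources. All groups share the line, and nothing states that the 2 libraries of a treatment came from separate cultures. The p-values measure only how far the difference between cells of high and low share varied between libraries of a treatment, pooled over the 3 treatments. That spread may be technical.

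A barcode counted as a cell when it had at least 1000 unique molecular identifiers (UMIs, the count of captured RNA molecules), 500 or more detected genes, and no more than 20% of UMIs from mitochondrially encoded genes. E6R replicate 1 had 2199 such cells and replicate 2 had 2228. Each cell was scored by the percentage of its UMIs from 10 marker genes of replication: MCM2 to MCM7, PCNA, TYMS, RRM2 and HELLS. Within each library the 25% of cells with the highest score (replication-high) and the 25% with the lowest (replication-low) were kept. That gave 549 cells a side in replicate 1 and 557 in replicate 2, or 2212 of the 4427 E6R cells and of the 11937 cells of the whole series.

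The cells were selected on the marker values, so these are a description and carry no test. The median score was 0.375% in the replication-high and 0.0687% in the replication-low cells of replicate 1, and 0.378% and 0.0835% in replicate 2. At the lower limit of the replication-high side, the last cell inside and the first cell outside both had 0.299% in replicate 1, and 0.3108% and 0.3107% in replicate 2. At the upper limit of the replication-low side, those cells had 0.1194% and 0.1199% in replicate 1, and 0.1426% and 0.1427% in replicate 2. The limits cut through a continuous range of scores, so the sides are ranges of 1 measure and not separate cell types. Replication-high cells had a median of 11 and 10 marker UMIs and replication-low cells 1 and 2 in replicates 1 and 2, so the score of a single cell was a coarse measure. No marker UMI was found in 96 cells of replicate 1 and 94 of replicate 2. Each of the 10 markers had more counts per 1000000 UMIs (CPM) in the replication-high sums, which the selection fixes: MCM7, for example, had 674 and 664 CPM against 164 and 162 CPM. The marker genes were left out of every result below.

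**Figure D1:**
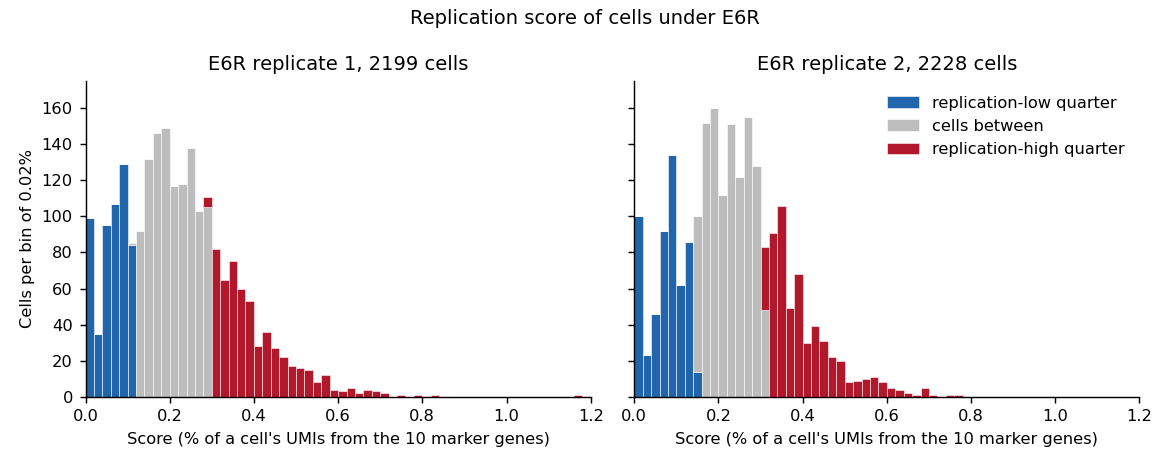
Number of E6R cells (vertical axis, bins of 0.02%) by replication score (horizontal axis, percentage of a cell's UMIs from the 10 marker genes), with the lowest quartile in blue, the highest in red and the remaining cells in grey. Both libraries show 1 broad continuous range of scores, with a separate bar at 0 for cells without a marker UMI.

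Before a cell copies its DNA, licensing factors load the MCM helicase at origins in G1, and in S phase kinases and firing factors start the forks at which polymerases, the PCNA clamp and its loader work. Transcription of much of this machinery is driven by E2F factors once the retinoblastoma proteins release them. Nucleotide synthesis enzymes, histones and histone chaperones are made at the same time, and genes of mitosis follow later in the cycle. Since the cells were chosen by RNA of replication genes, the values below describe which other RNAs differ between cells of the same library, and not an effect of E6R.

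The summed counts of the sides differed in depth and quality. Replication-high cells had a median of 2961 UMIs against 2222 in replicate 1 and 2439 against 1896 in replicate 2, and their sums held 4052890 against 3077797 and 8286056 against 3868703 UMIs. When each cell was thinned at random to 1000 UMIs, the median numbers of genes were close, at 775 against 763 and 781 against 756. The share of UMIs from mitochondrially encoded genes was lower in the replication-high sums, at 1.26% against 1.75% and 0.996% against 2.20%. In replicate 2 the 1% of cells with most UMIs held 17.0% of the UMIs of the replication-high sum and 16.1% of the replication-low sum, so a few large cells weigh on these sums. Of the cell barcodes, 15 were found in both E6R libraries, and 15 of replicate 1 and 39 of replicate 2 were found in any other library.

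In replication-high cells many genes made up a larger share of the RNA and about as many others a smaller share. Levels here and below are shares of the UMIs of a sum, not RNA per cell. Of 13009 genes tested, 2104 (16.2%) differed between the sides at an adjusted p under 0.05. Of these, 1049 (8.06% of those tested) were higher and 1055 (8.11%) were lower in the replication-high cells. Among them 376 were higher and 519 lower by at least 2-fold. The median log2 fold change over all tested genes was -0.04, which is the level against which the lists below are read. Sums were compared by the quasi-likelihood test of edgeR on the 12 sums of all 6 libraries, with the library as a block, because both sides come from the same library. The block decides the calls: without it 1 gene passed (1516 at an unadjusted p under 0.05). In the 4 E6R sums alone 3031 genes passed with the block, 2056 of them among the 2104, and 0 without it (1229 at an unadjusted p under 0.05). Without E6R replicate 1 the count was 388 and without replicate 2 it was 602, where the lone E6R library is assumed to vary like the others. DESeq2 called 578 genes, all among the 2104. Of 76 called genes described below, 58 passed with DESeq2. RFC1, PARP1, GAS5, CCND1, DNMT1 and HSPA5 were among those that did not.

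Sums weight each cell by its UMIs. When the same cells were each thinned to 1000 UMIs, so that all weighed alike, 186 genes passed (79 higher, 107 lower), and 178 of them were among the 2104. When cells were thinned before they were scored, so that the sides were chosen anew, 64 passed. The first setting, chosen after seeing the data, is called below the same cells weighted alike, and the second thinning before scoring. They left 9126 and 9088 genes to test, so fewer members of a list could pass. When the sides were instead chosen within 10 bins of depth, so that both had like depths, 1977 passed and 1782 of these were among the 2104. Depth per cell and the loss of counts by thinning move together here, and their part in the smaller counts was not tested.

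The largest rises, by a rule applied to genes with a mean of at least 50 CPM, were in genes of S phase and of mitotic entry. Levels of single genes by side are CPM on library sizes scaled by TMM (the trimmed mean of M values), while levels by quartile and summed list levels are CPM of the plain totals. EXO1, an exonuclease of mismatch repair and DNA end resection, had 125 and 171 CPM in the replication-high cells of replicates 1 and 2 and 16.7 and 33.6 CPM in the replication-low cells. Its log2 fold change was 2.58 (SE 0.29, adjusted p 7.73e-05), or 5.98-fold. FAM111B had 89.5 and 115 CPM against 8.37 and 28.7 CPM and rose by 2.53 (log2, SE 0.31, with an adjusted p of 1.53e-04). In both genes the lower replication-high library stood above the higher replication-low library. The sides likewise did not overlap in 5197 of the 13009 tested genes (39.9%), so a lack of overlap does not set a gene apart.

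HIST1H1D, a linker histone, was at 374 and 326 CPM against 53.9 and 68.1 CPM (log2 fold change 2.51). DTL, the substrate receptor of the ubiquitin ligase that removes CDT1 in S phase, was at 146 and 155 CPM against 19.2 and 34.8 CPM (log2 fold change 2.49). CDC6, which loads the MCM helicase together with CDT1, was at 213 and 249 CPM against 35.0 and 58.2 CPM (log2 fold change 2.33). All of these rose in both libraries, and replicate 2 had the higher level in the replication-low cells of each.

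MCM10, which helps to activate the loaded helicase, was at 147 and 188 CPM against 22.9 and 51.9 CPM (log2 fold change 2.21). UHRF1, which brings the maintenance methyltransferase DNMT1 to newly copied DNA, was at 93.8 and 85.9 CPM against 15.2 and 22.0 CPM (log2 fold change 2.26). WDR76 was at 91.0 and 129 CPM against 13.9 and 32.1 CPM (log2 fold change 2.29). All 3 were higher on the replication-high side of both libraries.

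Among the 10 largest rises were also a pair of kinases of mitotic entry. CDK1, the main mitotic kinase, had 133 and 127 CPM in the replication-high and 21.1 and 25.3 CPM in the replication-low cells (log2 fold change 2.48, SE 0.30). MASTL, the Greatwall kinase that protects CDK1 substrates from dephosphorylation, had 106 and 108 CPM and 17.0 and 23.7 CPM (log2 fold change 2.39, SE 0.25). The 10 genes had adjusted p-values between 5.85e-05 and 4.37e-04. All 10 passed without E6R replicate 1 and without replicate 2, 9 passed with the same cells weighted alike (not CDC6), and 8 with DESeq2 (not FAM111B or DTL). With thinning before scoring 4 passed, and FAM111B, CDK1, MASTL, CDC6, WDR76 and MCM10 did not. Their median log2 fold change was 2.43, 1.36 with cells weighted alike and 0.93 with thinning before scoring.

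**Figure D2:**
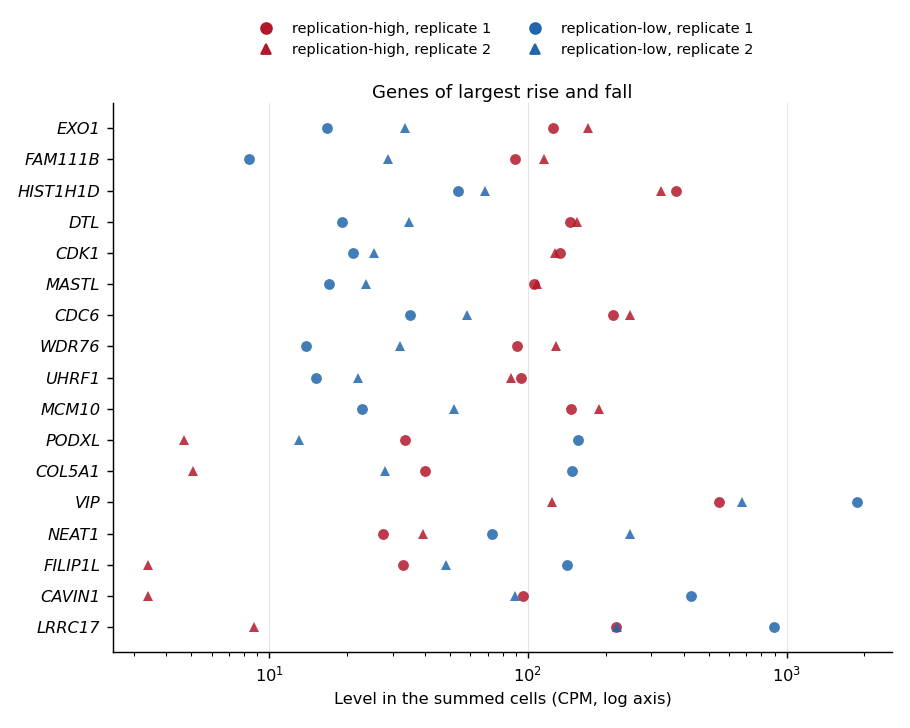
Level (CPM, log axis) of the 10 genes of largest rise and 7 of the 8 of largest fall in the summed replication-high (red) and replication-low (blue) cells of E6R replicate 1 (circles) and replicate 2 (triangles). For the rises all red points lie right of all blue points, while for CAVIN1, COL5A1 and PODXL the red point of replicate 1 lies right of the blue point of replicate 2.

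The promoters of 4 of these genes are shown because each holds a word of the E2F binding site, the factor class that drives genes of this phase. The sequences run from 250 bases before to 50 bases after the start of the gene, from RefSeq (GRCh38.p14), and the capitals mark the matched word. The words searched were TTTCCCGC, TTTGGCGC, TTTCGCGC and TTTGCCGC on both strands.
DTL (chr1:212035498-212035797, plus strand): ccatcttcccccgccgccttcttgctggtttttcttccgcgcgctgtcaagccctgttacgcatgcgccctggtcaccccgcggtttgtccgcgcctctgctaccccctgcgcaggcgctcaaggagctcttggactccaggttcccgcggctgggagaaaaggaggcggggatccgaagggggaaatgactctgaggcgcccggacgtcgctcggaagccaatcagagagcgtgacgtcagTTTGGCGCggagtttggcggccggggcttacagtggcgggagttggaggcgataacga
EXO1 (chr1:241847954-241848253, plus strand): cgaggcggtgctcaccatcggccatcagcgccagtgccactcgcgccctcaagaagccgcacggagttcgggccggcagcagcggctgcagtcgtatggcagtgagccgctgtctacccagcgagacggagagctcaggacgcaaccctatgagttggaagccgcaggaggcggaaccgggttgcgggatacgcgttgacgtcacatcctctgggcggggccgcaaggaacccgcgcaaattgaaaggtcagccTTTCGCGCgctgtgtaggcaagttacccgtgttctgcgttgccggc
CDC6 (chr17:40287629-40287928, plus strand): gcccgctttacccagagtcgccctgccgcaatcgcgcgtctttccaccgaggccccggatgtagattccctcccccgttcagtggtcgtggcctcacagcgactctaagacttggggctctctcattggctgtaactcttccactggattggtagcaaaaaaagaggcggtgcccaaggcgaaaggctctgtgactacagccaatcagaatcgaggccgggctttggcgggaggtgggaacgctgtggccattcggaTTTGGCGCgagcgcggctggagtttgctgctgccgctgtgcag
UHRF1 (chr19:4909251-4909550, plus strand): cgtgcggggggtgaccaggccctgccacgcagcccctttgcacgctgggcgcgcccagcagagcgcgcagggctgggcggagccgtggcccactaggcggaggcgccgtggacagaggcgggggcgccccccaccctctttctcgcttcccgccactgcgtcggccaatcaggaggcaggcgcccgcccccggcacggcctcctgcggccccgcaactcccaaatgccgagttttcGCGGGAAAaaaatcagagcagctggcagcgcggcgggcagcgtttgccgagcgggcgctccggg
In DTL the word began 8 bases before the start, in EXO1 at base 5 and in CDC6 at base 8 after it. In UHRF1 it lay on the minus strand and began at position -14. Of the 10 rising genes 7 had a promoter in the table, and 5 of these held such a word, CDK1 being the fifth, while MCM10 and MASTL had none. Of the falling genes 4 had a promoter in the table and 0 of them held one. Over all 27305 promoters listed there, 3.33% held a word (908), and over the 9917 of tested genes 5.39% (535). The share was 13.2% (110 of 836) for genes called higher, 2.49% (20 of 802) for genes called lower and 20.6% (57 of 277) for genes called at least 2-fold higher. A second motif, the TTTGAA core of the element found in cell cycle promoters, was in 15.4% of all promoters and 9.27% of those of tested genes. It was in 16.7% of those called higher, 12% of those called lower, 8.25% of those not called and 26.7% of those called at least 2-fold higher. These are matches of letters in a short window, not binding.

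Genes of origin licensing and firing were higher almost throughout: 21 of 24 tested passed as higher and 0 as lower, and the median log2 change was 1.47. CDC45, part of the active helicase, had 48.7 and 77.3 CPM in the replication-high and 8.99 and 19.6 CPM in the replication-low cells (log2 fold change 2.16, SE 0.30, adjusted p 2.76e-04). GINS2, of the complex that binds CDC45, had 262 and 307 CPM against 58.9 and 92.0 CPM (log2 fold change 1.93). CDT1 had 167 and 192 CPM against 42.5 and 73.1 CPM (log2 fold change 1.66). The 3 members that did not pass were ORC2, ORC4 and ORC5, subunits of the origin recognition complex, at 0.45, 0.26 and 0.41, whereas ORC1 rose by 1.80 and ORC6 by 1.43. Of the licensing genes, 13 passed without replicate 1 and 15 without replicate 2, 4 with the same cells weighted alike and 0 with thinning before scoring. With cells weighted alike the list's summed level was 2.05-fold and 1.60-fold higher in replicates 1 and 2 instead of 3.07-fold and 2.46-fold.

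Of the genes of the fork, 27 of 30 passed as higher (median log2 fold change 1.26). FEN1, the flap nuclease that finishes lagging strand fragments, had 145 and 144 CPM against 33.5 and 33.6 CPM (log2 fold change 2.11). PRIM1, the primase subunit that starts them, had 62.1 and 92.7 CPM against 10.8 and 28.7 CPM (log2 fold change 2.01, SE 0.20). Both were higher on the replication-high side of both libraries. Of the abundant members, RFC1, the large subunit of the clamp loader, had 198 and 214 CPM against 138 and 139.5 CPM and passed at a log2 fold change of 0.57. POLD2, a subunit of polymerase delta, had 249.7 and 274 CPM against 182 and 246 CPM and did not pass (0.30, adjusted p 0.144). The small polymerase delta subunit POLD4 went the other way, at 21.0 and 35.0 CPM against 49.3 and 71.2 CPM, and passed as lower (-1.11, adjusted p 5.24e-04). Fork genes that passed as higher numbered 15 without replicate 1 and 16 without replicate 2, and 0 under either thinning, where the list's median was 0.56 with cells weighted alike and 0.36 with thinning before scoring.

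Of the enzymes of nucleotide supply 18 of 20 were higher and 0 lower (median log2 fold change 0.84). RRM1, the large subunit of ribonucleotide reductase, had 171 and 184 CPM against 55.8 and 52.6 CPM (log2 fold change 1.71, SE 0.19). TK1, the thymidine kinase of S phase, had 156 and 259 CPM against 88.9 and 74.8 CPM (1.31). PAICS, of purine synthesis, had 544 and 563 CPM against 281 and 339 CPM and passed with a smaller change (0.84). NME1, which interconverts nucleotides and is the most abundant of the list, had 1358 and 1912 CPM against 1008 and 1659 CPM and did not pass (0.32). Its level overlapped between the sides, as replicate 2 had the higher values on both. The nucleotide list had 6 calls without replicate 1, 8 without replicate 2, 3 with cells weighted alike and 1 with thinning before scoring.

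Of 19 genes of chromatin assembly behind the fork, 18 were higher (median log2 fold change 1.21). ASF1B, a histone H3-H4 chaperone, had 36.1 and 53.9 CPM against 7.75 and 10.9 CPM (log2 fold change 2.27, SE 0.36), while its paralogue ASF1A did not pass (0.29). SUPT16H, of the FACT chaperone, had 515 and 570.5 CPM against 305 and 341 CPM (0.75). DNMT1, the maintenance DNA methyltransferase, had 426 and 415 CPM against 208 and 279 CPM (0.80). It did not pass with DESeq2, with a score from the 6 MCM genes or under either thinning. In chromatin assembly 9 members passed without replicate 1, 11 without replicate 2, 5 with cells weighted alike and 2 with thinning before scoring.

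Of 26 tested histone genes of S phase (of 31), 21 were higher and 1 lower, with a median log2 fold change of 1.59. HIST1H4C, the histone H4 gene with the highest level here, had 760.0 and 1142 CPM against 190.0 and 344 CPM (log2 fold change 1.86, SE 0.27). H2AFZ, the H2A.Z variant that is not made only in S phase, had 885 and 639 CPM against 429.5 and 308 CPM (1.05). Both rose in the fit and were higher on the replication-high side of both libraries. HIST1H3C and HIST1H2AB had the largest log2 fold changes, 3.64 and 3.32, but these rest on levels of 4.54 and 3.41 CPM against 0 and 0.483 CPM and of 4.06 and 4.83 CPM against 0.620 and 0.241 CPM. HIST1H2AC, by contrast, passed as lower (-1.45), at 25.3 and 21.9 CPM against 51.8 and 76.5 CPM. Most histone messages of S phase lack the poly(A) tail that the capture beads bind, and genes of these clusters are near copies of each other, so single histone genes are uncertain. Histone genes passing as higher numbered 7 without replicate 1, 12 without replicate 2, and 2 under either thinning, with 1 lower when cells were weighted alike. The median was 0.59 with cells weighted alike and 0.36 with thinning before scoring.

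The genes of G1 to S control were mixed, with 14 of 23 higher and 1 lower. The E2F factors that rose were E2F1, an activator, at 119 and 151 CPM against 29.1 and 44.4 CPM (log2 fold change 1.89, SE 0.21), E2F2 at 35.8 and 63.6 CPM against 3.10 and 10.4 CPM (2.89) and the repressor E2F8 at 17.9 and 17.9 CPM against 3.72 and 3.14 CPM (2.38). E2F7 also passed (1.69), whereas E2F3, E2F4, E2F5 and E2F6 did not, at 0.34, 0.37, 0.47 and 0.16. CCNE1, a cyclin E that starts S phase with CDK2, had 24.6 and 25.1 CPM against 6.51 and 8.45 CPM (1.71). CCNE2 had 43.0 and 53.9 CPM against 4.65 and 19.6 CPM (2.04), with a low value in the replication-low cells of replicate 1 in particular.

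CCND1, cyclin D1 of early G1, was the 1 member that passed as lower. It had 1114 and 1247 CPM in the replication-high and 1727 and 1642 CPM in the replication-low cells (log2 fold change -0.51, SE 0.13, adjusted p 0.0131). Over the quartiles of the score, from lowest to highest it stood at 1811, 1529.5, 1317 and 1156 CPM in replicate 1 and 1759.9, 1425, 1485 and 1283 CPM in replicate 2. Its kinase partner CDK4 rose, from 161 and 206 CPM to 290.3 and 346 CPM (0.80). The summed level of the list, of which CCND1 is the most abundant member, was 1.03-fold and 1.09-fold that of the replication-low cells. The G1 to S list gave 9 higher without replicate 1 and 12 without replicate 2, 5 with cells weighted alike and 1 with thinning before scoring, and 0 lower in each of these.

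Genes of DNA damage response and repair rose nearly throughout, 30 of 33 with 0 lower and a median log2 fold change of 1.35. RAD54L, a motor protein of homologous recombination, changed most (3.41, SE 0.47), at 16.7 and 16 CPM against 1.24 and 1.69 CPM. PARP1, a sensor of DNA breaks and an abundant member, had 554 and 531 CPM against 347 and 395 CPM (0.55). It did not pass with DESeq2 or under either thinning. ATR, HUS1 and NBN did not pass, at 0.31, 0.21 and 0.21. Repair genes that passed numbered 14 without replicate 1, 21 without replicate 2, 7 with cells weighted alike and 1 with thinning before scoring.

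Genes of G2 and mitosis were higher in the replication-high cells too: 70 of 78 passed as higher and 0 as lower, and the median log2 change was 1.21. CCNA2, cyclin A2 of S phase and G2, had 174 and 162 CPM against 39.0 and 34.5 CPM (log2 fold change 2.19, SE 0.32). TOP2A, the topoisomerase that untangles copied DNA, had 1024 and 1148 CPM against 327 and 449 CPM (1.50). Both were higher on the replication-high side of both libraries. CCNB1, the mitotic cyclin B1, had 155 and 131 CPM against 65.7 and 71.2 CPM (1.05, adjusted p 0.00369). SMC4, a condensin subunit, had 766 and 956 CPM against 350.2 and 443 CPM (1.12). MKI67, the proliferation marker Ki-67, had 655 and 647 CPM against 273 and 396 CPM and passed narrowly (0.98, adjusted p 0.0392). Mitotic genes that passed numbered 23 without replicate 1 and 33 without replicate 2. MKI67 passed in neither case, while CCNB1 and TOP2A did not pass without replicate 1. With thinning before scoring 5 members passed. With cells weighted alike 11 passed and the list's summed level was 1.59-fold and 1.29-fold higher instead of 2.18-fold and 1.96-fold.

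The order of levels over the 4 quartiles of the score, given as a description, differed in part between the replication and the mitotic genes. The third quartile held the deepest cells, with a median of 3496.5 and 3502 UMIs in replicates 1 and 2. In the top quartile the median was 2961 and 2439 UMIs. The part of depth in this order was not tested. EXO1 climbed over every quartile, at 17.8, 40.6, 75.8 and 129 CPM in replicate 1 and 36.0, 87.6, 103 and 176 CPM in replicate 2 from the lowest to the highest. CCNB1 was highest in the third quartile, at 68.8, 176, 197 and 161 CPM in replicate 1 and 76.3, 144, 191 and 135 CPM in replicate 2. MKI67 was at 286, 555, 669 and 679.6 CPM and 425, 566, 671 and 666 CPM, with nearly level values in the third and highest quartiles. Of licensing genes with a mean of at least 50 CPM, 12 of 13 had their highest level in the top quartile in both libraries, as had 13 of 14 fork genes and 7 of 7 histone genes. Of the 55 G2 and mitosis genes at that level, 18 were highest in the top quartile and 22 in the third quartile in both libraries. The summed level of the mitotic list was 6196 CPM, 11521 CPM, 13698 CPM and 13526 CPM over the quartiles of replicate 1, and 6894 CPM, 11293 CPM, 14458 CPM and 13532 CPM in replicate 2.

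**Figure D3:**
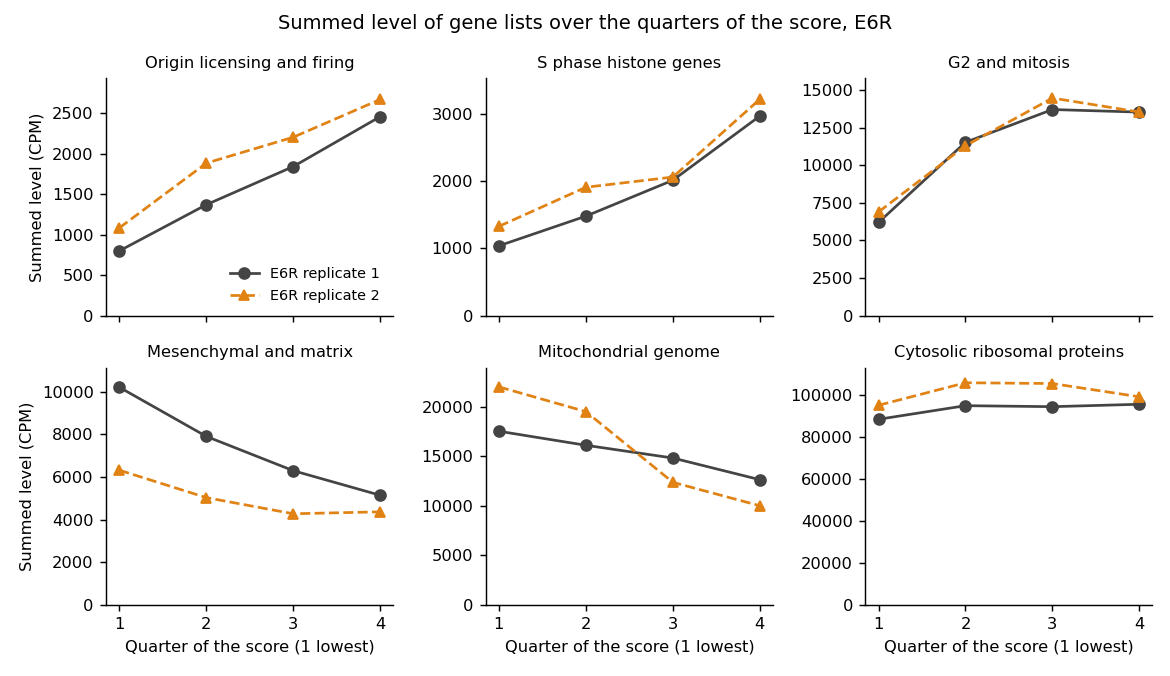
Summed level (CPM, vertical axis from 0) of 6 gene lists in the 4 quartiles of the replication score (horizontal axis, 1 lowest) in E6R replicate 1 (circles) and replicate 2 (triangles). Licensing and histone genes are highest in the fourth quartile, mitotic genes level off between the third and the fourth, matrix and mitochondrial genes are highest in the first, and ribosomal protein genes stay nearly level.

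RNA of the extracellular matrix and of mesenchymal cells was lower in the replication-high cells. Neuroblastoma lines are known to hold cells of an adrenergic and of a mesenchymal state, the latter marked by matrix and cytoskeletal genes. Of the 27 tested members of a mesenchymal and matrix list of 30, 20 were lower and 0 higher, the median log2 change being -1.42. VIM, the intermediate filament vimentin, had 1091 and 1098 CPM in the replication-high and 2284 and 1638 CPM in the replication-low cells (log2 fold change -0.82, SE 0.19). COL5A1, a chain of collagen V, had 39.9 and 5.06 CPM against 148 and 28.0 CPM (-2.10). Both sides of replicate 1 carried more COL5A1 than the same side of replicate 2, and the replication-high level of replicate 1 was above the replication-low level of replicate 2.

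The members with the largest changes had low levels. ANXA1, a calcium-dependent membrane-binding protein, changed by -3.73 at 1.67 and 0.118 CPM against 11.8 and 7.72 CPM, and TGFBI, a matrix protein, by -3.08 at 1.67 and 0 CPM against 6.20 and 4.59 CPM. ANXA2, a relative of ANXA1 and abundant here, had 985 and 792 CPM against 1624 and 1043 CPM and did not pass (-0.56, adjusted p 0.0831). The list's summed level was 5141 CPM in the replication-high and 10225 CPM in the replication-low cells of replicate 1, and 4365 CPM and 6319 CPM in replicate 2, and with cells weighted alike the replication-low level was 1.66-fold and 1.13-fold that of the replication-high cells. Of list UMIs per 1000, the median cell of the lowest quartile had 7 and of the highest 5 in replicate 1, and 4 and 4 in replicate 2. The 95th percentiles were 22 against 13 and 12 against 9, so the difference was larger among the cells richest in these RNAs than at the median. Matrix genes that passed as lower numbered 10 without replicate 1, 14 without replicate 2, 8 with cells weighted alike and 4 with thinning before scoring.

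COL5A1 was among the 8 largest falls of genes with a mean of at least 50 CPM, and 6 of the 8 lay outside that list. LRRC17 had 219.9 and 8.71 CPM against 894 and 220.4 CPM (log2 fold change -3.10, SE 0.40, adjusted p 1.86e-04). CAVIN1, a coat protein of caveolae, had 96.0 and 3.41 CPM against 426 and 89.6 CPM (-3.02). FILIP1L had 32.9 and 3.41 CPM against 142 and 48.3 CPM (-2.75). In all 3 the relative gap was widest in replicate 2, whose replication-high cells had hardly any of this RNA.

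VIP, the neuropeptide vasoactive intestinal peptide, had 546 and 124 CPM against 1873 and 672 CPM (-2.10, SE 0.19, adjusted p 4.82e-05). PODXL, a surface sialomucin, had 33.4 and 4.71 CPM against 156 and 13.0 CPM (-1.96). VIP was the most abundant of the 8 genes of largest fall and was lower in both libraries, with the wider gap in replicate 2. Without replicate 1, 7 of the 8 passed (not PODXL), and without replicate 2 all 8 did. With the same cells weighted alike 7 passed (not PODXL), with a median of -1.53 instead of -2.43, and with thinning before scoring 6 passed (not COL5A1 or PODXL), with a median of -1.10. DTL, MASTL, WDR76, LRRC17, FILIP1L, COL5A1 and PODXL each overlap an annotated gene on the other strand, and these sources do not state how strand was used in counting, so reads of such partners cannot be told apart.

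Genes of CDK inhibition and growth arrest were mixed, with 7 of 19 lower and 1 higher (median log2 fold change -0.53). CDKN2B, the p15 inhibitor of CDK4 and CDK6, had 3.82 and 1.41 CPM against 25.1 and 7.24 CPM (-2.54, SE 0.38). CCNG2, an atypical cyclin of resting cells, had 7.64 and 1.88 CPM against 31.9 and 6.52 CPM (-1.95). MXD4, a MAX partner that opposes MYC, had 80.0 and 43.7 CPM against 143 and 69.8 CPM (-0.76), and GAS5, a noncoding RNA of growth arrest, 155 and 144 CPM against 201 and 253 CPM (-0.60). CDKN2C, the p18 inhibitor, was the 1 member that passed as higher, at 43.7 and 46.5 CPM against 23.9 and 20.5 CPM (1.03).

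For CDKN1A, the p21 inhibitor, the libraries gave opposite differences. It had 17.7 CPM in the replication-high and 41.8 CPM in the replication-low cells of replicate 1, but 109 CPM and 81.8 CPM in replicate 2, and did not pass (-0.22, adjusted p 0.61). CDKN1B, the p27 inhibitor, had 65.9 and 39.5 CPM against 67.2 and 27.3 CPM and did not pass (0.24, adjusted p 0.413). Without replicate 1 no gene of the list passed as lower and 2 passed as higher, and without replicate 2 there were 4 lower and 0 higher. Under either thinning 0 members passed in either direction. With cells weighted alike the list's summed level was 737 CPM in the replication-high and 968 CPM in the replication-low cells of replicate 1, but 633 CPM and 625 CPM in replicate 2.

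RNA of the mitochondrial genome was lower in the replication-high cells in 11 of 13 genes, with 0 higher and a median log2 fold change of -0.82. MT-CO1, a subunit of cytochrome c oxidase, had 1169 and 1099 CPM against 1784 and 2632 CPM (-0.94, SE 0.17). MT-CO2 had 2058 and 1571 CPM against 2875 and 3124 CPM (-0.74), MT-CO3 1674 and 1630.3 CPM against 2333 and 3238 CPM (-0.74) and MT-ND6 19.6 and 18.7 CPM against 30.4 and 55.3 CPM (-1.17). The gap was wider in replicate 2 in each of these: the summed level was 1.39-fold higher in the replication-low cells of replicate 1 and 2.20-fold higher in replicate 2. Without replicate 2 no member passed, and without replicate 1 there were 10. With cells weighted alike 11 passed and with thinning before scoring 10.

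A pair of abundant nuclear noncoding RNAs moved the same way. MALAT1, a nuclear speckle RNA, had 597 and 605 CPM against 1308 and 2649 CPM (-1.63, SE 0.19). NEAT1, the scaffold of paraspeckles, had 27.5 and 39.4 CPM against 72.8 and 247 CPM (-2.12, SE 0.22, adjusted p 5.85e-05). Both fell steeply in replicate 2, where NEAT1 stood at 265, 141, 56.5 and 40.6 CPM over the quartiles. A high share of mitochondrial and nuclear RNA is a common sign of a damaged cell, and the part of RNA quality in the differences of the lists was not tested. With at most 10% of UMIs from mitochondrially encoded genes, 1734 genes passed, 1698 of them among the 2104. That limit cannot decide the question, because the typical cell lay far below it. The median share was 1.42% and 0.977% in the replication-high cells and 1.80% and 2.65% in the replication-low cells of replicates 1 and 2.

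Genes of stress and early response, a list that holds MALAT1 and NEAT1, gave 10 of 26 lower and 1 higher (median log2 fold change -0.46). HSPA5, the endoplasmic reticulum chaperone BiP, had 1082 and 1143 CPM against 1369 and 1868 CPM and passed as lower (-0.53). It did not pass with DESeq2, with a score from the 6 MCM genes, without the 5% of cells with most UMIs or under either thinning. HSPA8, the constitutive cytosolic chaperone, had 2025 and 1795 CPM against 1209.8 and 1282 CPM and was the 1 that passed as higher (0.61). The stress list gave 4 lower and 0 higher without replicate 1, and the same numbers without replicate 2. With cells weighted alike there were 2 lower and 1 higher, and with thinning before scoring 2 lower and 0 higher.

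Genes of the adrenergic identity of the line went both ways. MYCN, the amplified oncogene of this line, had 692 and 602 CPM in the replication-high and 666 and 586 CPM in the replication-low cells, and did not pass (log2 fold change 0.05, SE 0.14, adjusted p 0.848). Of 24 adrenergic genes 3 were higher and 4 lower, so 7 of 24 passed, with a median of 0.03. The list's summed level was 8386 CPM in the replication-high and 7766 CPM in the replication-low cells of replicate 1. In replicate 2 the order was reversed, at 11595 CPM and 14762 CPM. SCG2, a granin of secretory vesicles, had 917 and 1480.5 CPM against 1516 and 2494 CPM (-0.74), and TFAP2B, a transcription factor of the sympathetic lineage, 90.0 and 172 CPM against 135 and 317 CPM (-0.75). CYB561, an electron carrier of secretory vesicles, had 714 and 1622 CPM against 735 and 2401 CPM and did not pass (-0.31). The adrenergic list had 0 higher and 2 lower without replicate 1, and 2 higher and 1 lower without replicate 2. It had 1 higher and 2 lower with cells weighted alike, and 0 higher and 1 lower with thinning before scoring.

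Of the adrenergic list, PHOX2A, HAND2, GATA3, ISL1, DBH, TH and MYCN were detected on both sides of both libraries, with 2105 UMIs of PHOX2A and 16884 of DBH in the 4 sums. The libraries differed: DBH had 967 and 501 UMIs on the replication-high and replication-low sides of replicate 1, but 10342 and 5074 in replicate 2. TH had 136 and 104 UMIs in replicate 1 and 1279 and 766 in replicate 2, whose sums were also deeper. NTRK2 had 2 UMIs in all and none on the replication-low side, and ALK had 44. Of 24 genes of neuronal maturation 0 were higher and 2 lower (median -0.20), the latter near the 8.11% that passed as lower over all tested genes. One was GAP43, a growth cone protein, at 132 and 262 CPM against 299.7 and 359 CPM (-0.81), and the other L1CAM, an adhesion protein, at -0.50. Without replicate 1, and under either thinning, neither passed.

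Of 34 genes of ribosome biogenesis 10 were higher and 0 lower, with a median log2 fold change of 0.34. NPM1, the nucleolar chaperone nucleophosmin, had 2037 and 1814 CPM against 1207 and 1284 CPM (0.63). FBL, the rRNA methyltransferase fibrillarin, had 393 and 552 CPM against 238 and 326 CPM (0.74), and GAR1, of the RNA pseudouridylation complex, 73.3 and 48.8 CPM against 37.2 and 33.1 CPM (0.77). NCL, nucleolin, had 1961 and 1769 CPM against 1354 and 1594 CPM and did not pass (0.34). In this list 1 gene passed without replicate 1, 2 without replicate 2 and 1 under either thinning. Of 83 cytosolic ribosomal protein genes 0 passed in either direction (median 0.11). TFRC, the transferrin receptor that brings iron into dividing cells, had 337 and 391 CPM against 210.4 and 301 CPM (0.53, adjusted p 0.028), and did not pass without either library.

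Subunits of HDAC complexes, the class of target that the series title names, gave 3 higher and 3 lower of 36, with a median of 0.06. Over all tested genes 8.06% passed as higher and 8.11% as lower, so both counts are near that share. RBBP7, a histone-binding subunit shared with chromatin assembly complexes, had 219.9 and 213 CPM against 145 and 119 CPM (0.72). ARID4A, of the SIN3 complex, had 49.4 and 41.1 CPM against 63.2 and 74.8 CPM (-0.62). HDAC2, a catalytic subunit, had 367 and 311 CPM against 305 and 241 CPM and did not pass (0.32, adjusted p 0.109). HDAC complex genes gave 1 higher without replicate 1 and 0 without replicate 2, with 0 lower in either case, and 0 in either direction under either thinning.

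Markers of other cell types were low. Of 12 Schwann and glial genes 4 were tested and 0 passed. S100B had 11.7 and 4.47 CPM against 22.9 and 5.55 CPM and PMP22 41.8 and 28.0 CPM against 73.8 and 31.1 CPM, while CDH19 and FABP7 had 0 UMIs and SOX10 had 1 UMI in the 4 sums together. The summed level was 42.0 CPM to 60.2 CPM in the replication-high and 52.0 CPM to 110 CPM in the replication-low sums. Of 18 blood, endothelial and epithelial genes 7 were tested and 6 were lower in the replication-high cells (median -1.61), with summed levels of 95 CPM to 106 CPM against 198 CPM to 312 CPM. CD3E, MS4A1 and HBA1 had 0 UMIs and PTPRC, the pan-leukocyte marker, had 4 UMIs. KRT18, a keratin, had 21.7 and 3.30 CPM against 67.2 and 49.0 CPM (-2.57). KRT19, the member with the most UMIs (1415 in the 4 sums), did not pass (-0.28). PECAM1, an endothelial adhesion protein, had 13.1 and 0.118 CPM against 70.0 and 0.966 CPM (-2.42), so its RNA was almost all in replicate 1. Most UMIs of CDH5 and VWF were in replicate 1 too. Replicate 2 had 2 UMIs of CDH5 on each side, and 11 of VWF in the replication-high against 5 in the replication-low sum. Of the 7 tested, 1 passed without replicate 1, 4 without replicate 2, 1 with cells weighted alike and 0 with thinning before scoring. Their part in the fall of the matrix genes was not tested.

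**Figure D4:**
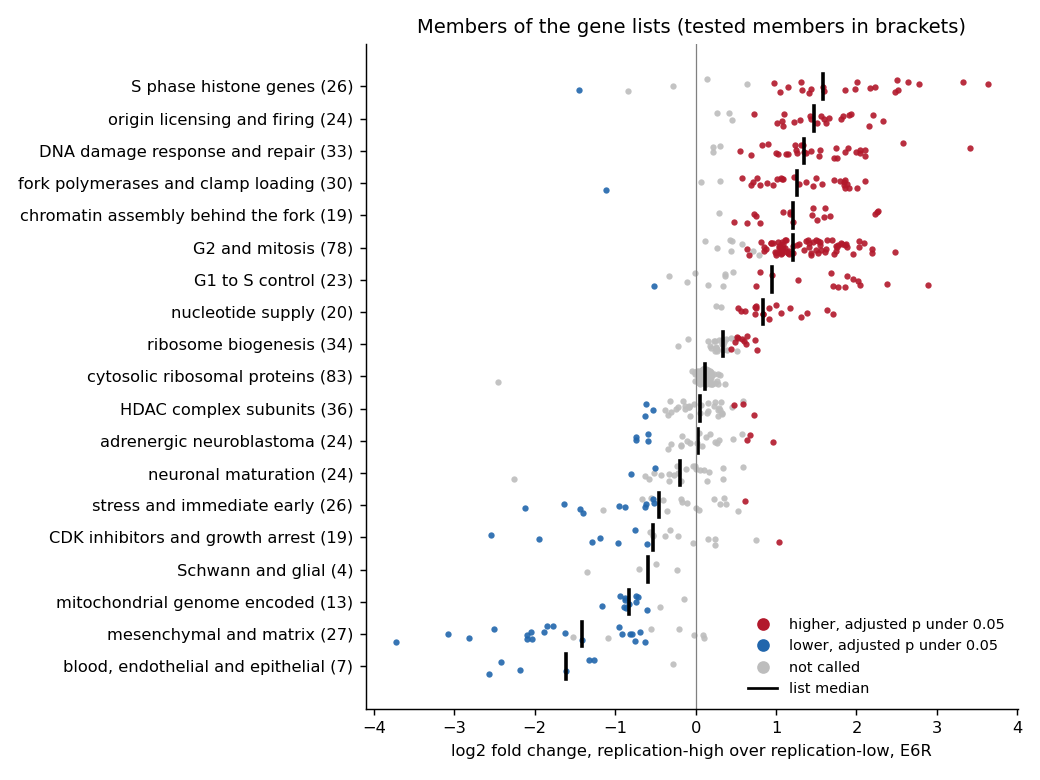
log2 fold change of each tested member of the gene lists (replication-high over replication-low cells, both E6R libraries in 1 fit), coloured by the test at an adjusted p of 0.05, with the list median as a black bar. Lists of S phase, repair and mitosis lie to the right (medians 0.84 to 1.59), ribosomal and HDAC complex genes near 0, and mesenchymal, mitochondrial and non-neuroblastoma genes to the left.

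Cells of the other treatments were scored and divided within their own library by the same rule, and the difference of the high to low changes was tested. Sides held 296 and 420 cells in the DMSO libraries and 463 and 697 in the TSA libraries, and their replication-low sides were poorer in marker RNA than under E6R. Cells without any marker UMI made up 13.2% and 14% of the DMSO cells, 13.1% and 11.8% of the TSA cells, and 4.37% and 4.22% of the E6R cells. The DMSO sums were also shallower, at 731168 to 1143184 UMIs.

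Against DMSO, 0 of 13009 genes (0%) differed in their high to low change, with 417 at an unadjusted p under 0.05 and 0 by DESeq2. Licensing genes had a median log2 change of 0.999 under DMSO and 1.47 under E6R, G2 and mitosis genes 0.83 and 1.21, matrix genes -0.99 and -1.42, and mitochondrial genes -0.52 and -0.82. EXO1 changed by 2.10 under DMSO and 2.58 under E6R, and HIST1H1D by 0.97 and 2.51. None of the single-gene differences between E6R and DMSO passed at this depth, and the differences of list medians were not tested. Within DMSO alone 13 genes passed and within TSA alone 270, against 2104 within E6R, and whether precision or a smaller change accounts for this was not tested.

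Against TSA, 12 genes (0.0922%) differed, 1 with a more positive and 11 with a more negative change under E6R, and 1306 had an unadjusted p under 0.05. DESeq2 called 2. NEAT1 changed by -2.12 under E6R but by -0.36 under TSA, a difference of -1.76 (SE 0.29, adjusted p 0.0372). Under DMSO its log2 change was -1.055 (adjusted p 0.0889). Its TSA levels were 182 and 244 CPM in the replication-high and 223 and 328 CPM in the replication-low cells. Within each TSA library it was thus lower on the replication-high side, while the sides overlapped across libraries. GOLGA2, a Golgi matrix protein, had 84.8 and 51.3 CPM against 188 and 119.7 CPM under E6R, lower in the replication-high cells. Under TSA it had 203 and 166 CPM against 200.3 and 158 CPM, a difference in log2 change of -1.23 (SE 0.20, adjusted p 0.0372). Under DMSO its log2 change was -0.74 (adjusted p 0.0793).

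H1F0, the linker histone H1.0 of resting cells, had 62.1 and 76.4 CPM against 79.6 and 93.7 CPM under E6R (-0.32, adjusted p 0.217). Under TSA it was far more abundant and rose with the replication score, with 1357 and 1931 CPM in the replication-high and 499.9 and 1252 CPM in the replication-low cells (log2 change 1.03). The difference was -1.35 (SE 0.23, adjusted p 0.0382). Under DMSO the log2 change of H1F0 was 0.43 (adjusted p 0.44). The count of differing genes ranged from 0, without E6R replicate 2 or DMSO replicate 1 for example, to 146 without the low-count filter, so it depended on the libraries and settings used.

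**Figure D5:**
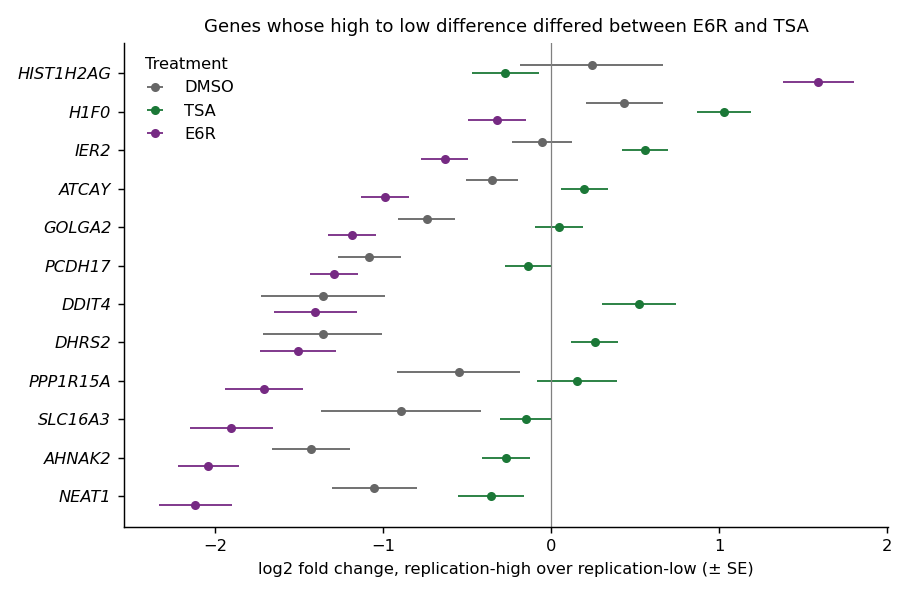
log2 fold change of replication-high over replication-low cells (horizontal axis, with SE bars) under DMSO (grey), TSA (green) and E6R (purple) for the 12 genes whose change differed between E6R and TSA. Under E6R 11 of them are negative while their TSA values lie between -0.36 and 1.03, and HIST1H2AG alone is positive under E6R (1.59) with -0.27 under TSA.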

How the data were processed

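Per the labels, Seq-Well S3 libraries were made from SK-N-BE(2)-C cells, and the authors deposited 1 matrix of raw UMI counts per library (36601 genes, 6 libraries). Per the submitters' processing notes STARsolo 2.7.9a and GRCh38 were used, and these sources do not give the annotation, strand rule or barcode rule. The gene annotation used here (GENCODE 29) held 99.5% of the tested genes.

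Cells were filtered, scored and divided as described in the report, ties being ordered by a seeded random number, and no doublet caller was run. UMIs were summed per library and side, the 10 markers were removed, and low genes were filtered with filterByExpr. edgeR 4.0.16 (R 4.3.3, TMM, quasi-likelihood test, Benjamini-Hochberg adjustment) was fitted to 12 sums with a library block and a side effect per treatment, leaving 3 residual degrees of freedom. The scripts were tested on simulated data.

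The sides pair by construction: deviations of a library's sides from their group means correlated at r = 0.54 (DMSO), 0.504 (TSA) and 0.832 (E6R). Named genes were the 10 largest rises and 8 largest falls at a mean of at least 50 CPM with the same sign in both libraries, up to 3 a direction of each treatment difference, 17 genes regardless of result, and of each of 18 lists the 2 most abundant and the 2 most changed members. Genes outside this rule, such as POLD4, HIST1H2AC, CDKN2C and the members named as not passing, were named after their values were seen, and some genes that the rule names are not reported here. The members and lists were chosen with earlier results of these data known. Alternatives were other scalings, filters, tests, cell selections and leaving out each library.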

Additional observations from a re-analysis of the deposited data

Results flagged for a closer look

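For 12 genes the change from replication-low to replication-high cells differed between E6R and TSA by the edgeR contrast at an adjusted p under 0.05, which is why they are listed. Between E6R and DMSO 0 genes differed. Under DMSO the log2 changes were 0.24 for HIST1H2AG, -0.74 for GOLGA2, -1.36 for DDIT4, -1.055 for NEAT1, -1.08 for PCDH17 and -1.36 for DHRS2. They were -1.43 for AHNAK2, -0.89 for SLC16A3, -0.35 for ATCAY, -0.06 for IER2, -0.55 for PPP1R15A and 0.43 for H1F0. H1F0 had the opposite sign under E6R. HIST1H2AG changed by 1.59 under E6R and -0.27 under TSA on the log2 scale, a difference of 1.86. For GOLGA2 the difference was -1.23, from -1.19 under E6R and 0.05 under TSA. A difference of -1.93 was found for DDIT4 (-1.40 under E6R, 0.52 under TSA). NEAT1 changed by -2.12 under E6R and -0.36 under TSA on the log2 scale, a difference of -1.76. For PCDH17 the difference was -1.16, from -1.29 under E6R and -0.14 under TSA. A difference of -1.76 was found for DHRS2 (-1.51 under E6R, 0.26 under TSA). AHNAK2 changed by -2.04 under E6R and -0.27 under TSA on the log2 scale, a difference of -1.77. For SLC16A3 the difference was -1.75, from -1.90 under E6R and -0.15 under TSA. A difference of -1.19 was found for ATCAY (-0.99 under E6R, 0.20 under TSA). IER2 changed by -0.64 under E6R and 0.56 under TSA on the log2 scale, a difference of -1.19. For PPP1R15A the difference was -1.86, from -1.71 under E6R and 0.15 under TSA. A difference of -1.35 was found for H1F0 (-0.32 under E6R, 1.03 under TSA). Of the 12 genes, 0 passed with a mean of at least 20 CPM, with at most 10% mitochondrial UMIs, with the MCM score, without DMSO replicate 1 or without E6R replicate 2, and 1 passed with the same cells thinned before summing. Their cause was not tested.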

How the results depend on the processing

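The E6R count of 2104 genes was 388 to 2571 with each library left out in turn, 578 with DESeq2, 1 with no replicate block, 0 with E6R only and no replicate block, 64 with cells thinned before scoring and 186 with the same cells thinned before summing. The difference from DMSO, 0 genes, was 8 with no low-count filter, 10 with the highest and lowest 10% of cells, 1 under either thinning and 0 to 1 with each library left out. The difference from TSA, 12 genes, was 2 with DESeq2, 146 with no low-count filter, 0 with a mean of at least 20 CPM, 0 with no replicate block, 1 within depth bins, 127 and 7 with the highest and lowest 10% and 40% of cells, 3 without the 5% of cells with most UMIs, 0 with at most 10% mitochondrial UMIs, 0 with the MCM score and 0 to 73 with each library left out. The 9 and 11 genes under the thinnings shared 0 and 1 with the 12. Scaling by library totals gave 923 higher and 1202 lower, and DESeq2 size factors gave 2113 in all. Thinning the same cells and leaving out barcodes found in several libraries (2087 genes) were chosen after seeing the data. The cause of these changes was not tested.

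With each library left out in turn, the log2 fold change of CDKN1A ranged from -1.24 to 0.419, the latter without E6R replicate 1, and was 0.0472 with no replicate block and 0.0299 with E6R only and no replicate block. CDKN1B ranged from -0.0247 (without E6R replicate 2) to 0.542, and stood at -0.242 with cells thinned before scoring. MYCN stood at -0.0333 with a mean of at least 20 CPM and -0.0146 with the highest and lowest 10% of cells.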
